A study of Mus musculus with 7 samples.

Results

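The insulin-like growth factor (IGF) genes of the mammary gland were examined as a family: the ligands Igf1 and Igf2, the receptors Igf1r and Igf2r, and the binding proteins Igfbp2 to Igfbp7. The 10 genes were listed by name, and every probe set annotated to exactly 1 of them was taken, 28 probe sets in all. Each gene was represented by its probe set of highest mean log2 signal, and the others are given beside it. All 10 were among the 18193 genes measured and among the 12497 that passed a filter on low signal, set at a mean signal of 57.7. One more probe set, shared by Igf2r and a neighbouring antisense gene, was left out. The glands came from virgin female FVB/PyV-Mt mice, which express the polyoma virus middle T antigen and develop mammary tumours, aged 8 weeks. From 4 weeks of age the mice had eaten either AIN93G control chow (3 arrays) or a chow holding 1% conjugated linoleic acid (CLA), linoleic acid isomers with conjugated double bonds (4 arrays). The study put 5 mice on the control and 6 on the CLA diet. Mice of both diets carry the transgene, so no comparison with a gland free of it is made here. The sources used here do not name the promoter that drives it. Arrays were labelled as separate samples, and each measured total RNA of mammary tissue as MAS5 signal, a linear scale; where samples are not from separate mice, p-values measure only their technical spread.

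IGF1 and IGF2 are secreted growth factors that signal through the tyrosine kinase receptor encoded by Igf1r, while the product of Igf2r, the cation-independent mannose 6-phosphate receptor, takes IGF2 up for degradation. The high-affinity binding proteins hold the ligands in serum and matrix and limit, or sometimes prolong, their access to the receptor, and IGFBP7 binds IGFs only weakly. In the mammary gland IGF1 is made mainly by the stroma and acts on ductal epithelium, and IGFBP5 is known for its rise during involution.

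The arrays were scaled alike, with a trimmed mean signal of 500.003 on each. Luminal epithelial markers, which define the tissue, were measured for 12 of 14 genes, and their summed signal ran from 95003 to 119162 in control and from 100273 to 110741 in CLA glands. Basal and myoepithelial markers (11 of 11 measured) summed to 5600 to 8980 in control and 8938 to 11482 in CLA glands, with a median log2 change of 0.32, and overlapped only slightly. Endothelial markers summed to 3998 to 5267 against 3954 to 4502, macrophage markers to 25103 to 32256 against 24456 to 31468, and lymphocyte markers, most of them below the filter, to 1863 to 2505 against 2087 to 2539. Summed white adipocyte marker signal (12 of 15 genes measured, none at 0) was 47718 to 58856 in control and 15602 to 38503 in CLA glands, and all 11 tested markers had lower means in CLA, with the highest CLA value on replicate 4. Of Fabp4, Lpl and Adipoq, the brightest of these markers, the log2 change was -1.30 for Fabp4 and -1.81 for Adipoq, and Lpl read 9485 to 9763 in control and 3914 to 6633 in CLA glands. Summed skeletal muscle marker signal (15 of 15 measured, none at 0) was 12820, 119266 and 20786 in the 3 control glands, in replicate order. In the 4 CLA glands it was 18887, 887, 2800.5 and 747. The brightest muscle markers by mean log2 signal were Acta1, Mylpf and Atp2a1. Fibroblast and matrix markers, all 14 measured, summed to 70623 to 83917 in control and 73317 to 100625 in CLA glands. As a sign of RNA quality, Actb signal at the 3′ end over that at the 5′ end, a ratio that rises as RNA degrades, was 2.78 on CLA replicate 3, 1.88 on control replicate 2 and 1.41 to 1.65 on the other arrays. The sample titles carry numbers that start with 27 on control replicate 1 and CLA replicate 1 and with 28 on the other 5 arrays. In whole tissue, fewer cells of a type and less RNA per cell cannot be told apart, and the part of these differences in the IGF values was not tested except where a value is given.

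No member showed a change past the test, and the family as a whole was not tested as a set. Limma called 0 of the 10 members at an adjusted p under 0.05, against 0% of all 12497 genes, and the members' adjusted p ran from 0.904 to 0.999. At an unadjusted p under 0.05 limma also found 0 members, where 5.39% of all genes lay below that value. The mean was higher in CLA glands for 6 members and lower for 4, of which Igfbp5 and Igfbp6 turned to higher with median centring of the arrays. Over all genes 55.3% had a higher mean in CLA glands, and 69.1% with median centring. Their median log2 change was 0.15, beside 0.03 over all genes tested. Changes ran from -0.43 for Igf2r to 0.70 for Igfbp3. The groups overlapped for 9 of 10 members. The exception was Igfbp7, 1 of 10 members with every CLA array above every control array, where 2.64% of all genes lay that way, and 0 members lay the opposite way, where 2.67% of all genes did.

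**Figure D1:**
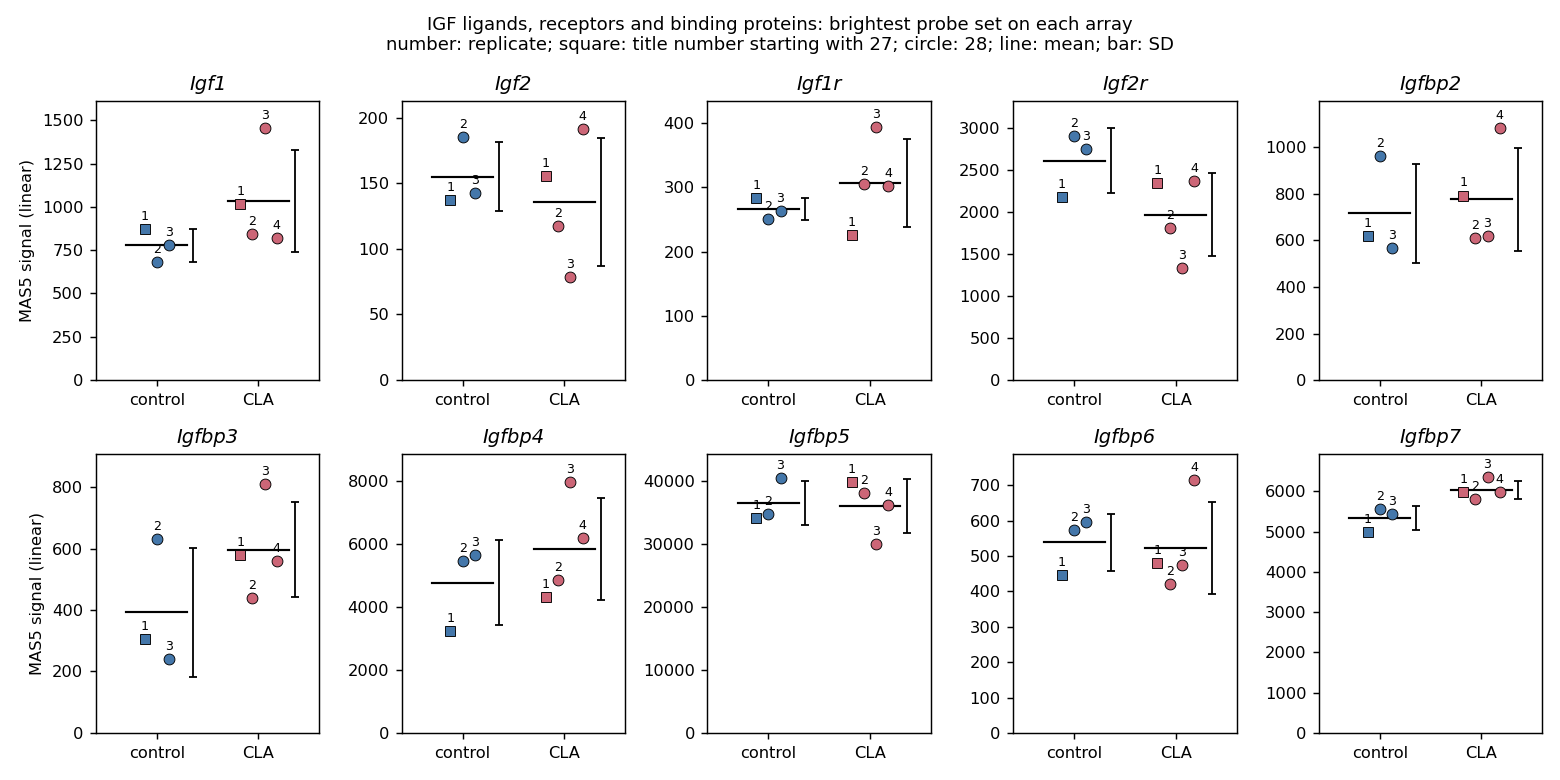
MAS5 signal (linear axis from 0) of the brightest probe set of each member on the 3 control (blue) and 4 CLA (red) arrays, with replicate numbers, group means (lines) and SD (bars); squares mark title numbers starting with 27. The groups overlap in 9 panels and lie apart for Igfbp7, and CLA replicate 3 is the highest or lowest array for 8 of the 10 genes.

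CLA replicate 3 was the highest or lowest array for 8 of the 10 members, where it was so for 33.2% of all genes tested, and this order was noticed after the values were seen. The Actb ratio above was at its maximum on this array. Its signal was highest for 5 members, Igf1, Igf1r, Igfbp3, Igfbp4 and Igfbp7, and lowest for 3, Igf2, Igf2r and Igfbp5. CLA replicate 4, with the most adipocyte signal among the CLA glands, was highest for 3 members, Igf2, Igfbp2 and Igfbp6, where it was so for 17.9% of all genes.

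For Igf1, Igfbp3 and Igfbp7 the 250 bases before the annotated start are shown, from RefSeq (GRCm38.p6), which held a window for each of the 10 members. The choice of these genes rests on no result past the test. Igf2r, with a larger change in size than Igf1 or Igfbp7, is not shown. All windows shown are written 5′ to 3′ on the gene's strand. Capitals mark matches on either strand to 4 short motifs. The CCAAT box was searched as its name spells it. The GC box was searched as GGGCGG. The TATA box was searched as TATAAA. The core of nuclear receptor sites was searched as AGGTCA. None of these overlaps another in the windows shown. Igf1 lies on the plus strand at chr10:87860861-87861110, Igfbp3 on the minus strand at chr11:7213924-7214173 and Igfbp7 on the minus strand at chr5:77408046-77408295.
Igf1: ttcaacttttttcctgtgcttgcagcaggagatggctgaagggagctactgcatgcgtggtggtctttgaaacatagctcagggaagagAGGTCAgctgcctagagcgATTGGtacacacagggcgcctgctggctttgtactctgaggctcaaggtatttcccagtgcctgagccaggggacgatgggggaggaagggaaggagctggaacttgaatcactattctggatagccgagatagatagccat
Igfbp3: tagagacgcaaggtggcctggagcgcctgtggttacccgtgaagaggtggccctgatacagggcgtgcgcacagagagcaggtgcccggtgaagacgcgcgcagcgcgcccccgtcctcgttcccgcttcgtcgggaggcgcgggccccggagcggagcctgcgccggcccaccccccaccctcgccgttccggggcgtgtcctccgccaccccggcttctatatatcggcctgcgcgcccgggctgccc
Igfbp7: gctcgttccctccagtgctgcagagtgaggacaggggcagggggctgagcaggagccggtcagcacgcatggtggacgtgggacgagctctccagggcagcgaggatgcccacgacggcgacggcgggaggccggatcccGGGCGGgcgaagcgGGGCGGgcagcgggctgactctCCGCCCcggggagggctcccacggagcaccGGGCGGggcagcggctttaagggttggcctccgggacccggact
The Igf1 window held 1 receptor core and 1 CCAAT box, the Igfbp7 window 4 GC boxes and the Igfbp3 window none of the 4 motifs. GC content was 52.8% for Igf1, 73.2% for Igfbp3 and 74.0% for Igfbp7. Of the 32851 RefSeq windows of the same length, 14.0% held a receptor core, 33.8% a CCAAT box, 32.7% a GC box and 12.4% a TATA box. Among the members' 14 windows, 4 held a receptor core, those of Igf1, Igf1r, Igf2r and 1 of Igf2, and 2 held a TATA box, those of Igfbp4 and Igfbp6. These matches describe the letters of the windows, and no readout here measures binding to them.

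Among the ligands, Igf1 had a higher mean in CLA glands on its brightest probe set, 1437401_at, and the groups overlapped. In replicate order, here and for every gene that follows, signal was 869.8, 679.9 and 782 in control against 1014, 842, 1454 and 822 in CLA glands. The control mean was 777 ± 95.04 (SD, n = 3), against 1033 ± 294 (SD, n = 4) under CLA. CLA replicates 1 and 3 lay above every control, and CLA replicates 2 and 4 lay within the control range. The change was 1.30-fold, a log2 change of 0.38 ± 0.22 (SE) with a 95% interval from -0.11 to 0.86, with a limma adjusted p of 0.931 and an exact permutation p of 0.171. The interval thus spans anything from a fold of 0.928 to one of 1.82. Without CLA replicate 3 the log2 change was 0.20, and between the arrays with title numbers starting with 27 it was 0.22.

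The 4 probe sets of Igf1 moved in different directions, which limits any statement on the gene. The second-brightest, 1434413_at, read 547, 478 and 517 in control and 381, 545, 1037 and 444 in CLA glands, a log2 change of 0.12 ± 0.31 (SE). The third, 1452014_a_at, read 443, 297 and 372 in control and 263, 295, 251 and 347 in CLA glands, a log2 change of -0.35 ± 0.22. The dimmest, 1419519_at, had a log2 change of -0.18 ± 0.29. On CLA replicate 3 the first 2 probe sets were at their highest and the third at its lowest. The within-array ratio of the brightest to the third was 1.96 to 2.29 in control and 2.37 to 5.79 in CLA glands, without overlap and with its maximum on CLA replicate 3. A pair of probe sets with ratios apart was seen for 2 of the 18 ratios of this kind over all members. The share of such pairs over all genes was not computed. As these 2 were singled out after their values were seen, no test is given. As the mean of its 4 probe sets Igf1 had a log2 change of -0.0089, and with the white adipocyte score as a covariate -0.023.

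Igf2, the fetal growth factor expressed from the paternal allele, was dim. Its signal was 138, 185 and 142 in control and 155, 117, 78.2 and 191 in CLA glands, a mean of 155 ± 26.4 (SD, n = 3) against 135 ± 48.7 (SD, n = 4). The lowest and the highest of the 7 values were both CLA arrays, replicates 3 and 4. The log2 change was -0.26 ± 0.33 (SE), with an interval from -0.99 to 0.48, a limma adjusted p of 0.996 and an exact permutation p of 0.571. It was 0.17 between the arrays whose title numbers start with 27 and -0.43 among those starting with 28, and 0.64 with the white adipocyte score as a covariate. Without CLA replicate 3 it was -0.020, without CLA replicate 4 it was -0.45, and without control replicate 2 it was -0.12. The other Igf2 probe set lay below the filter, at 5.31 to 27.9 on all arrays.

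**Figure D2:**
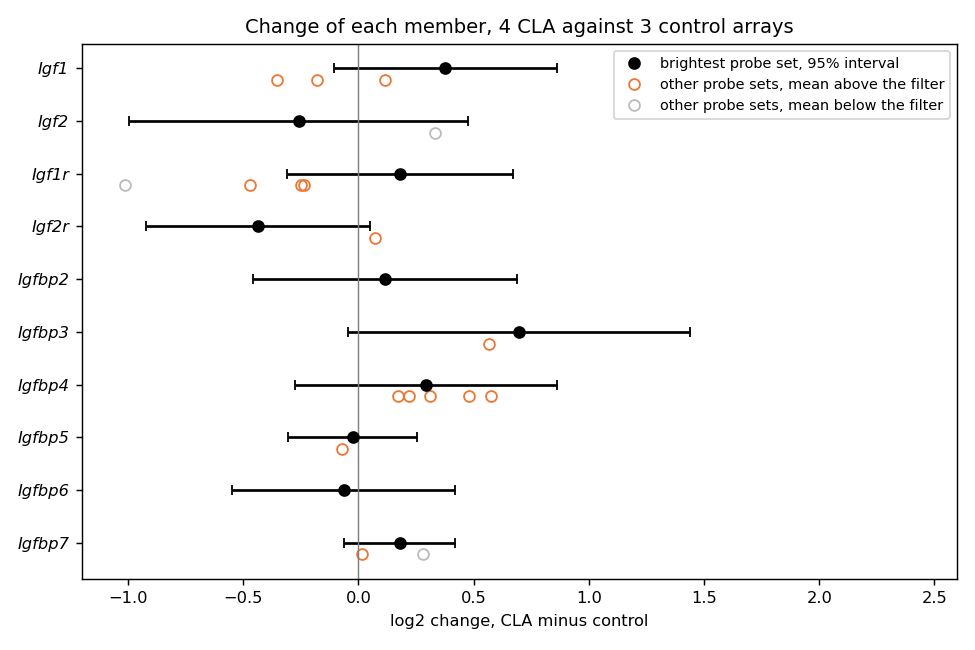
Log2 change (CLA minus control, 4 against 3 arrays) of each member on its brightest probe set with limma's 95% interval (black), and of its other probe sets (open circles, orange above and grey below the filter on low signal). All 10 intervals include 0, and the probe sets of Igf1, Igf2, Igf1r and Igf2r lie on both sides of it.

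Of the receptors, Igf1r, the signalling receptor, read 284, 249.98 and 264 in control and 225, 306, 394 and 302 in CLA glands. CLA replicates 2, 3 and 4 lay above the control range and CLA replicate 1 below it. The mean was 266 ± 17.1 (SD, n = 3) against 307 ± 69.0 (SD, n = 4), with a log2 change of 0.18 ± 0.22 (SE), an interval from -0.31 to 0.67, a limma adjusted p of 0.995 and an exact permutation p of 0.457. The other 4 Igf1r probe sets had changes below 0. On the 3 of them above the filter these ran from -0.47 to -0.24. The change of -1.01 was on 1452108_at, which lay below the filter at 9.03 to 57.3. The mean over probe sets, which includes that dim one, was -0.36. The change of the brightest probe set was -0.087 with the skeletal muscle score as a covariate. Without CLA replicate 3 it was 0.050, and without CLA replicate 1 it was 0.32. Between the arrays with title numbers starting with 27 it was -0.34, and among those starting with 28 it was 0.37.

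Igf2r, the clearance receptor of IGF2, had the lowest log2 change of the family. Its brightest probe set, 1424112_at, read 2177, 2910.1 and 2749 in control and 2346, 1815, 1338 and 2375 in CLA glands. CLA replicates 2 and 3 lay below every control, and CLA replicates 1 and 4 lay inside the control range. The mean was 2612 ± 385 (SD, n = 3) against 1968 ± 493 (SD, n = 4), 1.35-fold lower, with a log2 change of -0.43 ± 0.22 (SE), an interval from -0.92 to 0.05, a limma adjusted p of 0.904 and an exact permutation p of 0.171. The other probe set, 1424111_at, read 1443, 1739 and 1651 in control and 1845, 1588, 1598 and 1744 in CLA glands, a log2 change of 0.07 ± 0.14. Its range was narrow and its groups overlapped. The within-array ratio of the 2 was 1.51 to 1.67 in control and 0.837 to 1.36 in CLA glands, lowest on CLA replicate 3. With CLA replicate 3 left out the change of the brightest probe set was -0.26, with the adipocyte score as a covariate 0.046, and with the muscle score -0.27. Between the arrays with title numbers starting with 27 it was 0.11, and among those starting with 28 it was -0.66, with an unadjusted limma p of 0.0300. Array weights gave -0.52, with an unadjusted limma p of 0.0125 and an adjusted p of 0.194. Before adjustment, 1945 of 12497 genes lay under 0.05 with array weights and 1227 among title numbers starting with 28. In the main fit 674 genes did. Over all alternatives the adjusted p of Igf2r ran from 0.194 to 1.00.

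**Figure D3:**
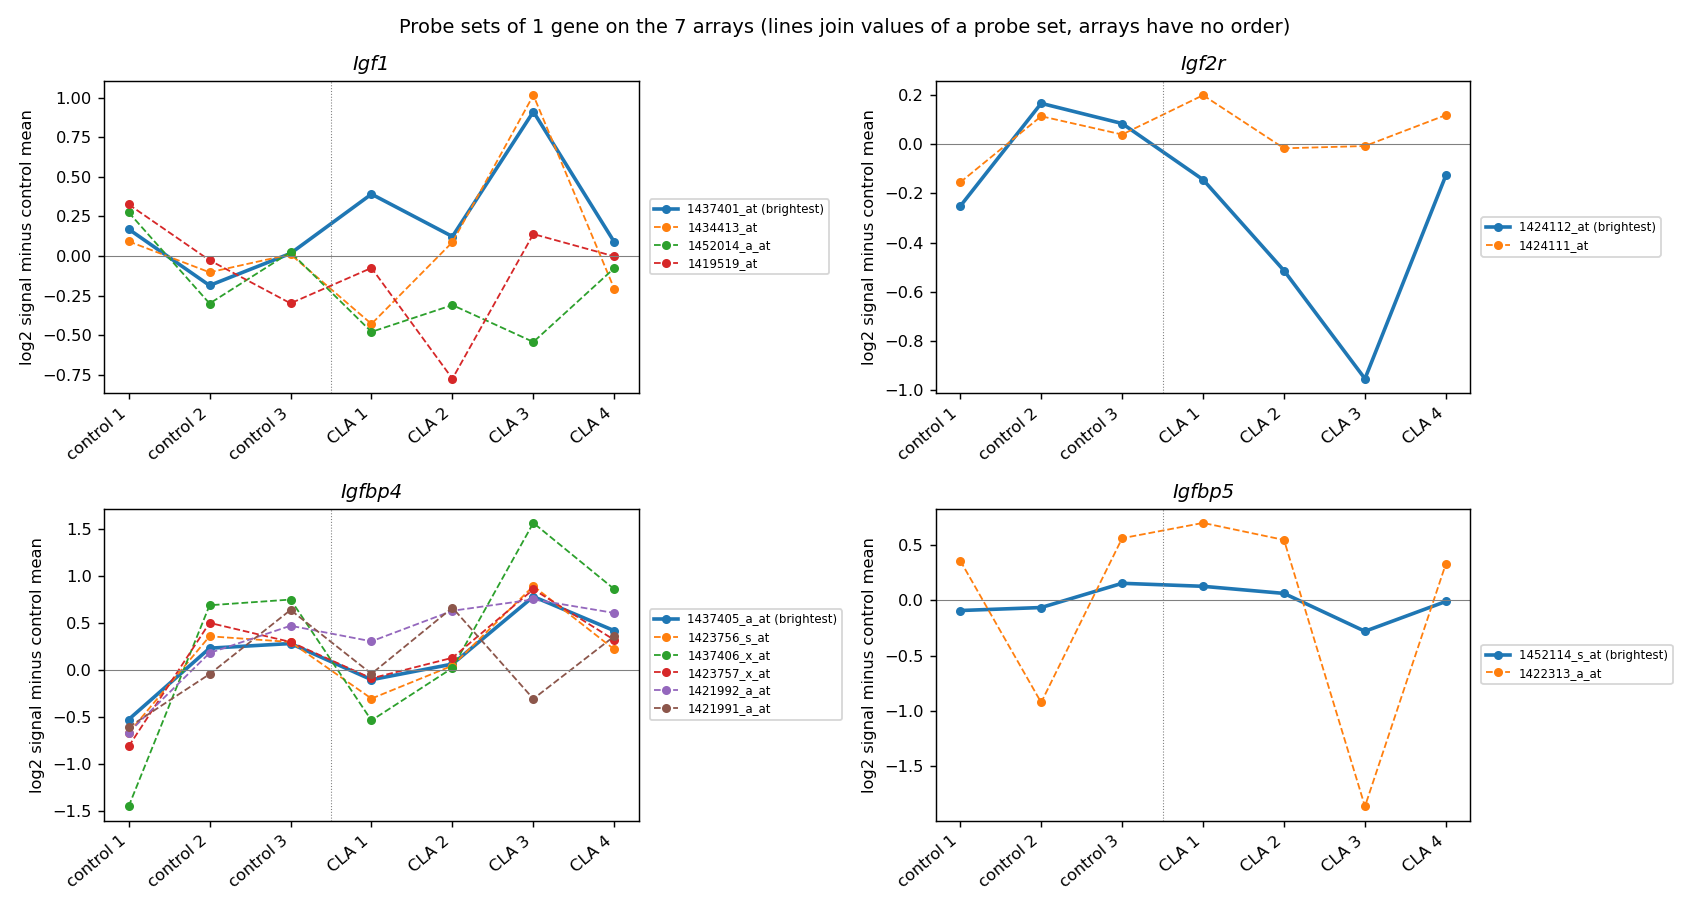
Log2 signal of every probe set of Igf1, Igf2r, Igfbp4 and Igfbp5 on the 7 arrays, relative to its control mean, with the brightest probe set as a solid line. Igf1 and Igf2r probe sets part on CLA replicate 3, the 6 Igfbp4 probe sets are all lowest on control replicate 1, and the dimmer Igfbp5 probe set is low on control replicate 2 and CLA replicate 3.

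Among the binding proteins, Igfbp3, the main carrier of IGFs in serum, had the largest change, and its probe sets had the same sign. The brightest, 1423062_at, read 305, 631 and 241 in control and 580.3, 439, 811 and 558 in CLA glands. All CLA values lay above control replicates 1 and 3, and only CLA replicate 3 lay above control replicate 2, the gland with the most muscle signal. The mean was 392 ± 209 (SD, n = 3) against 597 ± 155 (SD, n = 4). The change was 1.62-fold, a log2 change of 0.70 ± 0.33 (SE) with an interval from -0.04 to 1.44, a limma adjusted p of 0.904 and an exact permutation p of 0.229. The other probe set, 1458268_s_at, read 316, 496 and 330 in control and 556, 431, 668 and 582 in CLA glands, a log2 change of 0.57 ± 0.23. Its unadjusted limma p was 0.0304 among all probe sets with 1 symbol, where the adjusted p was 0.991 and 4.94% of probe sets had an unadjusted p under 0.05. Without control replicate 2 the log2 change of Igfbp3 was 1.10, and without control replicate 3 it was 0.41. With the skeletal muscle score as a covariate it was 1.29, with an unadjusted limma p of 0.0168 and an adjusted p of 0.9996. In that fit 315 of 12497 genes lay under 0.05 before adjustment. The muscle score of CLA replicates 2, 3 and 4 lay below every control, which limits that fit. Over all alternatives the adjusted p of Igfbp3 ran from 0.273 to 1.00. The log2 change was 0.93 between the arrays with title numbers starting with 27 and 0.58 among those starting with 28. In the RefSeq gene order Igfbp3 is next to Igfbp1, whose signal was at most 26.3 on any array, under the filter.

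Igfbp7, a matrix and vessel-wall protein, had the narrowest spread of the binding proteins. Its signal was 4999, 5565 and 5433 in control and 5979, 5811, 6359 and 5987 in CLA glands. All 4 CLA values lay above all 3 control values. The mean was 5333 ± 296 (SD, n = 3) against 6034 ± 231 (SD, n = 4), 1.13-fold higher. The log2 change was 0.18 ± 0.11 (SE), with an interval from -0.06 to 0.42 and a limma adjusted p of 0.931. The exact permutation p was 0.0571, the lowest that the two-sided test used here can give for 3 against 4 arrays. Under the alternatives other than a left-out array the change ran from 0.14 to 0.26. The second Igfbp7 probe set, at 61.3 to 158 near the filter, had a log2 change of 0.01 ± 0.36, and the third lay below the filter.

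Igfbp4, an inhibitor of IGF action that the protease PAPP-A cleaves, was higher in mean on each of its 6 probe sets, with changes from 0.17 to 0.58. The brightest, 1437405_a_at, read 3217, 5442 and 5632 in control and 4314, 4841, 7960 and 6190 in CLA glands (means 4764 ± 1343 (SD, n = 3) and 5826 ± 1627 (SD, n = 4)). Its log2 change was 0.29 ± 0.25 (SE), with an interval from -0.27 to 0.86, a limma adjusted p of 0.969 and an exact permutation p of 0.457. In these values both arrays with title numbers starting with 27 lay below all 5 starting with 28, which was noticed after they were seen. The order held for 4 of the 6 probe sets, which read the same gene. It held for 1 of the 10 members, where 12.7% of all genes had this order. Control replicate 1 was the lowest array on 6 of 6 probe sets. Within title numbers starting with 27 the change was 0.42, within 28 it was 0.16, and a block on the number gave 0.24. Without control replicate 1 the change was 0.033, without CLA replicate 3 it was 0.13, and with array weights 0.026. With the adipocyte score as a covariate it was 0.55. One probe set, 1421992_a_at, had an unadjusted limma p of 0.0449 with an adjusted p of 0.991, and with Igfbp3's second it made 2 of 28 member probe sets under 0.05 before adjustment.

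Igfbp5, a matrix-bound regulator of epithelial survival, had nearly equal means. Its brightest probe set read 34186, 34837 and 40574 in control and 39813, 38070.1, 30000.4 and 36199 in CLA glands, means of 36532 ± 3515 (SD, n = 3) and 36021 ± 4276 (SD, n = 4). The log2 change was -0.02 ± 0.12 (SE), with an interval from -0.30 to 0.26 and, in folds, from 0.810 to 1.19. The dimmer probe set, 1422313_a_at, read 13139, 5384 and 15129 in control and 16660.0, 14968, 2799.7 and 12886 in CLA glands. It was low on control replicate 2 and CLA replicate 3, the arrays with the highest 3′ to 5′ ratios of 1.88 and 2.78, and its log2 change was -0.07 ± 0.59. The change of the brightest probe set was 0.22 between the arrays with title numbers starting with 27 and -0.12 among those starting with 28.

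Igfbp2 lies next to Igfbp5 in the genome and is a carrier found in many body fluids. It read 620.2, 960.4 and 567 in control and 793, 612, 617 and 1082 in CLA glands. Control replicate 2 and CLA replicate 4 were high, the other 5 arrays were between 567 and 793, and the groups overlapped. The log2 change was 0.12 ± 0.26 (SE), with an interval from -0.46 to 0.69 and a limma adjusted p of 0.997. With the white adipocyte score as a covariate it was 1.05, with an unadjusted limma p of 0.0208 and an adjusted p of 0.845. Without CLA replicate 4 it was -0.058, without control replicate 3 it was -0.033, without control replicate 2 it was 0.35, and among title numbers starting with 28 it was 0.0076. Igfbp6, which prefers IGF2, read 447, 573 and 596 in control and 481, 421, 473 and 715 in CLA glands, with CLA values both above and below the control range. Its log2 change was -0.06 ± 0.22 (SE), with an interval from -0.55 to 0.42 and a limma adjusted p of 0.997, and 0.66 with the adipocyte score as a covariate. It was 0.10 between the arrays with title numbers starting with 27, -0.16 among those starting with 28, and -0.26 with array weights.

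Genes that control or transmit IGF action were read from 4 lists with 39 names, of which 28 were tested, 6 lay below the filter and 5 had no probe set of their own in the annotation used. Limma called 0 of the 28 after adjustment, as it did 0% of all genes. An unadjusted limma p under 0.05 was found for 1 of the 28, Ghr, where 5.39% of all genes lay below that value. The mean was higher in CLA glands for 10 and lower for 18, with a median log2 change of -0.07. The groups lay apart for 3, all lower in CLA glands, namely Stat5a, Cish and Irs2, and for 0 in the other direction, where 2.67% of all genes lay apart lower and 2.64% higher.

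Growth hormone input, which drives Igf1 transcription in liver and stroma, had lower means for all 6 genes, with a median log2 change of -0.16. Over all genes tested, 5592 of 12497 had lower means. Ghr, the growth hormone receptor, read 2779, 3084 and 2357 in control and 1906, 1526, 2188 and 2587 in CLA glands. CLA replicate 4 lay within the control range and the other CLA arrays below it. The log2 change of Ghr was -0.44 ± 0.19 (SE), with an unadjusted limma p of 0.0470 and an adjusted p of 0.904. As the mean of its probe sets it was -0.29, with an unadjusted limma p of 0.204. With the white adipocyte score as a covariate it was 0.21. Stat5a, a transcription factor that the growth hormone and prolactin receptors activate, read 2482, 2266 and 2751 in control and 1944, 2253, 1899.8 and 2151 in CLA glands, groups that nearly touched. Its log2 change was -0.28 ± 0.13, with a limma adjusted p of 0.904 and an exact permutation p of 0.0571. Cish, an inhibitor induced by STAT5, read 619, 712 and 602 in control and 567, 599.5, 562 and 473 in CLA glands, with a log2 change of -0.23 ± 0.16. Jak2, Stat5b and Socs2 had changes of -0.07, -0.08 and -0.04. Median centring, which moved the median of all genes from 0.03 to 0.11, gave -0.35 for Ghr, -0.20 for Stat5a and -0.15 for Cish. The changes of Jak2, Stat5b and Socs2 were not read out under it. They are near enough to 0 to turn or vanish with such a shift.

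Of the other carriers, the binding protein proteases and their inhibitors, 5 of 10 were tested, with 2 higher and 3 lower in mean. Adam12, a metalloprotease that can cleave binding proteins, had a log2 change of 0.45 ± 0.29 (SE). Stc1, a stanniocalcin of the family that blocks PAPP-A, had -0.42 ± 0.37, and Igfals, the third subunit of the serum complex of IGF and IGFBP3, had -0.20 ± 0.26. The sign of each differed between the arrays with title numbers starting with 27, 1 per diet and without a test, and those starting with 28. A block on the number gave 0.46 for Adam12, -0.43 for Stc1 and -0.18 for Igfals. Between the arrays starting with 27 the change was -0.10 for Adam12, 0.62 for Stc1 and 0.16 for Igfals, and among those starting with 28 it was 0.69, -0.87 and -0.32. As the mean of probe sets the change was -0.063 for Stc1 and 0.68 for Adam12. Igfbp1, Igfbpl1, Pappa, Pappa2 and Adam28 lay below the filter. Limma's adjusted p of the tested genes ran from 0.941 to 0.997.

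Downstream of the receptors, 16 of 19 genes were tested, 7 higher and 9 lower in mean. Irs2, a docking protein of the insulin and IGF1 receptors, read 264, 298 and 252 in control and 197, 229.6, 176 and 232 in CLA glands. Every CLA array was below every control array, with a log2 change of -0.39 ± 0.20 (SE), a limma adjusted p of 0.904 and an exact permutation p of 0.0571. Irs1, its paralogue, had -0.25 ± 0.21 and the kinase gene Akt1 0.25 ± 0.19, both with overlapping groups. With the adipocyte score as a covariate, the Irs1 change was -0.99, with an unadjusted limma p of 0.0126 and an adjusted p of 0.845. In that fit 685 of 12497 genes lay under 0.05 before adjustment. The score lay apart between the diets, so little is left there to separate them. With no covariate, leaving out control replicate 3 gave -0.067 for Irs1, and leaving out CLA replicate 4 gave -0.099. The insulin receptor gene Insr had -0.19 ± 0.20. Of the IGF2 mRNA binding proteins, which bind Igf2 transcripts, Igf2bp3 was the only one tested, at 0.51 ± 0.30 (-0.091 between the arrays with title numbers starting with 27 and 0.81 among those starting with 28), and Igf2bp1 lay below the filter.

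**Figure D4:**
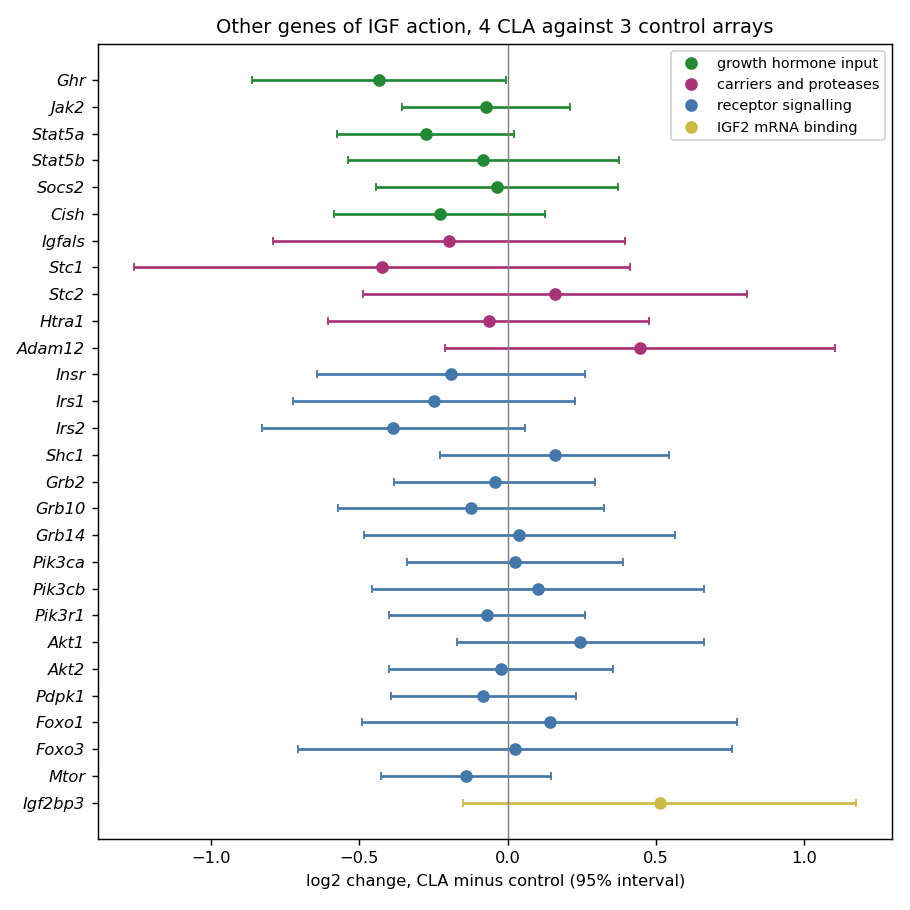
Log2 change (CLA minus control, 4 against 3 arrays) with limma's 95% interval for the 28 tested genes of growth hormone input, carriers and proteases, receptor signalling and IGF2 mRNA binding. With the deposited scaling the growth hormone genes all lie below 0, and the interval of Ghr is the only one that leaves out 0.

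The genes most like each member over the 7 arrays were found among all genes tested, by Pearson's r of log2 signal, as a description. The arrays differ in diet, tissue makeup and RNA quality, and the part of these differences in the r values was not tested. With 12497 genes compared over 7 arrays, some high r is found for each member. For the ligands these were Zfp84 (r of 0.983), Rlf and Gfra1 for Igf1, and Nans (0.982), Car11 and Jkamp for Igf2. For the receptors they were Ddx46 (0.974), B4galt7 and Chd9 for Igf1r, and Garem1 (0.977), Folr1 and Capn3 for Igf2r. For the binding proteins they were Nr4a1 (0.989), Tnfrsf4 and Mup5 for Igfbp2, Ergic1 (0.953), Papolg and Cysrt1 for Igfbp3, and Slc66a1 (0.983), Snx24 and Hsd11b2 for Igfbp4. They were Slx1b (0.977), Rps26 and Ifngr2 for Igfbp5, Cox6a1 (0.986), Clptm1l and Gstm2 for Igfbp6, and Adgra2 (0.975), Morrbid and Arnt2 for Igfbp7. No member was among the 3 nearest genes of another.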

How the data were processed

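Mammary gland RNA was labelled with biotin and read on Affymetrix arrays with 1 colour, per the labels' protocols. The authors deposited MAS5 signal intensity for each probe set, per the submitters' processing notes, on a linear scale by its values, and the mean with 2% trimmed at each end was equal on all arrays, so this scaling was kept. The sources used here give no MAS5 version, build or annotation. Groups came from the diet in the labels, with replicates numbered in accession order. Nothing in the labels pairs the mice.

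After a floor of 1, signals were put on the log2 scale with no pseudocount. Probe sets with 1 gene symbol were used, 34945 of 45101, with names updated by Entrez identifier through RefSeq (GRCm38.p6) for 34741 of them. A gene was represented by its probe set of highest mean log2 signal and tested if that mean reached the 40th percentile of probe sets. The diet difference (CLA minus control) was estimated by limma 3.58.1 (R 4.3.3, lmFit and eBayes with trend), two-sided, with Benjamini-Hochberg adjustment over the 12497 genes tested. All single-symbol probe sets were fitted together for values of a gene's other probe sets. Two-sided exact permutation tests covered all 35 assignments. A marker score is the average, over tested markers, of centred log2 signal. The fit was tried on simulated data with independent noise, of equal spread in both diets, and with changes larger than those of the members. That trial does not cover changes as small as theirs, tissue makeup, RNA quality or the title numbers. The members, gene lists and rules were chosen with earlier results of these data known. Named genes were the members, the 3 tested genes of smallest p in each pathway list, the 3 brightest adipocyte and muscle markers and the genes nearest to each member; Insr, Jak2, Stat5b and Socs2 were named beside their lists after their values were seen, as was the order of the arrays by title number. The number of arrays limits the precision. Alternatives covered scaling, pseudocounts of 16 and 64, probe set choice, filters, array weights, the title number, marker scores as covariates and each array left out.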

Additional observations from a re-analysis of the deposited data

Results flagged for a closer look

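The second Igfbp5 probe set, 1422313_a_at, read 2799.7 on CLA replicate 3, far below the other 3 CLA arrays, which lay between 12886 and 16660.0. Its gap to the nearest array was 0.856 of the group's log2 range, above Dixon's 95% limit for 4 samples. It was the only one of 38 sets of CLA values examined, over the members' probe sets and the named pathway genes, to pass this limit, and chance gives about 1 in 20. The brightest Igfbp5 probe set read 30000.4 on the same array, its lowest value. The 3′ to 5′ ratio of Actb was 2.78 there, and its part in this value was not tested.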

How the results depend on the processing

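No alternative brought any of the 10 members or the 28 pathway genes past the adjusted threshold. The number of genes called over all genes was 0 in the main analysis, 3 with array weights, 1 among title numbers starting with 28, and 0 to 17 with an array left out (17 without CLA replicate 4 and 2 without control replicate 1). Igfbp3, Igfbp4 and Igfbp7 kept their sign under all 21 alternatives, though Igfbp4 had 0.033 without control replicate 1 and 0.026 with array weights. The adipocyte score lay apart between the diets, so a fit with it as a covariate has little left to separate them. With it the log2 change turned to -0.023 for Igf1, 0.64 for Igf2, 0.046 for Igf2r, 0.66 for Igfbp6, 0.21 for Ghr and 0.57 for Stc1. With the muscle score it turned to -0.087 for Igf1r and -0.13 for Akt1, as the mean of probe sets to -0.0089 for Igf1, -0.36 for Igf1r and -0.019 for Akt1, and with median centring, which moved the median of all genes from 0.03 to 0.11, to 0.057 for Igfbp5 and 0.018 for Igfbp6. The cause was not tested. With an array left out the change ran from -0.058 (without CLA replicate 4) to 0.35 for Igfbp2, -0.075 to 0.061 (without CLA replicate 3) for Igfbp5, -0.22 to 0.031 (without CLA replicate 2) for Igfbp6 and -0.40 to 0.023 (without control replicate 3) for Igfals. Igf2 was not tested as the mean of its probe sets or with the 60th percentile filter, where its mean signal was too low. Title numbers starting with 27, with 1 array per diet, gave values without a test, of opposite sign to the main value for Igf2, Igf1r, Igf2r, Igfbp5, Igfbp6, Adam12, Stc1, Igfals and Igf2bp3. With 3 and 4 arrays, the median standard error of the members was 0.22 on the log2 scale.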
